A study of Arabidopsis thaliana with 18 samples.

Results

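The nuclear genes for the photosystems and their light-harvesting antennae were followed in leaves of Arabidopsis thaliana during induced silencing of NAA50, the catalytic subunit of an N-terminal acetyltransferase. The 50 genes were chosen by what they encode and not by their values, though earlier results of these data were known. They were matched by locus identifier and make up 50 of the 23790 genes in the count table. They comprise 20 antenna genes (LHCB and LHCA), 10 photosystem II genes (PSB), 12 photosystem I genes (PSA) and 8 genes for electron transport and ATP synthase. All 50 passed the filter on low counts that left 18344 genes to test.

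Light-harvesting proteins bind chlorophyll a and b and pass excitation energy to the reaction centres. Photosystem II draws electrons from water, and the electrons move through the cytochrome b6f complex and plastocyanin to photosystem I, then through ferredoxin and ferredoxin-NADP reductase (FNR) to NADPH. The reaction-centre core proteins are made in the plastid, and the antenna and most peripheral subunits studied here are encoded in the nucleus, where their transcripts respond to light, the clock and the state of the chloroplast.

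The study used 2 transgenic lines, each carrying an artificial microRNA (amiRNA) that dexamethasone switches on. The NAA50amiRNA line (NAA50 line) targets NAA50, and the ScrambledamiRNA line (scrambled line) expresses a scrambled control sequence. Plants aged 4 weeks, grown under 8 h days and 16 h nights, were sprayed with 50 µM dexamethasone and sampled at 0, 12 and 24 h. This gave 6 groups of 3 libraries, and every sample held 0.4 g of the 4th leaf of 4 plants. All 6 groups carry a transgene and the same spray label, and the labels give neither the promoter behind the inducible system nor the number of independent lines. Unsprayed plants at 12 and 24 h were not analysed here, so a change from 0 h in either line cannot be told apart from an effect of the spray or of the hour of harvest, which is not given. Each p-value measures the spread between these pooled samples.

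AT5G11340, taken as NAA50 (RefSeq lists it as an acyl-CoA N-acyltransferase), was checked before any other gene. Its level was 14.8, 13.8 and 13.4 CPM (read counts scaled to a common library size) in the scrambled line at 0 h, 16.6, 12.8 and 15.7 CPM at 12 h, and 17.7, 17.1 and 16.0 CPM at 24 h. In the NAA50 line it was 13.4, 11.6 and 12.7 CPM at 0 h, 3.75, 4.16 and 3.12 CPM at 12 h, and 2.36, 3.31 and 4.62 CPM at 24 h. NAA50 was thus 4.07-fold lower at 12 h (log2 difference -2.03 ± 0.18, SE, edgeR quasi-likelihood test with Benjamini-Hochberg adjustment, adjusted p = 5.38e-07) and 4.86-fold lower at 24 h (-2.28 ± 0.18, adjusted p = 1.47e-07), and at 0 h the difference was -0.16 ± 0.16, which did not pass (adjusted p = 0.664). Libraries held 10389333 to 12353330 counts, so a count of 0 allows at most 0.224 to 0.322 CPM (3 counts per library, counting error only). The leaf mesophyll markers RBCS1A, RCA and CA1 were abundant in every library, while the 4 root markers had 35 counts and the 3 flower markers 69 counts over all 18 libraries. The scrambled 0 h library 2 stood apart with the lowest scaling factor (0.864, against at most 1.09).

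The 50 genes supplied a large part of all counts, and that part shrank with time in both lines. They took 17.8%, 20.8% and 16.8% of the counts in the scrambled libraries at 0 h, 9.71%, 10.8% and 8.51% at 12 h, and 7.10%, 4.81% and 8.76% at 24 h. In the NAA50 line the shares were 14.1%, 16.4% and 13.5% at 0 h, 5.90%, 6.45% and 4.82% at 12 h, and 3.62%, 5.09% and 4.26% at 24 h. The NAA50 libraries lay below all scrambled libraries at 0 and 12 h, and at 24 h the groups overlapped because the scrambled 24 h library 2 (4.81%) fell below the highest NAA50 library (5.09%). In these whole-leaf samples, fewer cells of a type and less RNA of these genes per cell cannot be told apart.

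Antenna genes gave most of these counts. Their share of all counts was 11.5% ± 1.27 (SD, n = 3) in the scrambled line at 0 h, 5.46% ± 0.746 at 12 h and 3.71% ± 1.18 at 24 h, against 9.02% ± 0.965, 3.07% ± 0.514 and 2.28% ± 0.523 in the NAA50 line. Within the 50 genes the antenna fell from 62.5% ± 0.415 of the counts at 0 h to 56.4% ± 1.13 at 12 h and 53.5% ± 1.89 at 24 h in the scrambled line, and from 61.5% ± 0.196 to 53.5% ± 1.41 and 52.5% ± 3.61 in the NAA50 line. Photosystem II genes moved the other way within the 50, from 17.0% ± 0.307 to 20.5% ± 0.790 and 22.6% ± 1.64 in the scrambled line and from 17.7% ± 0.0683 to 21.8% ± 0.963 and 22.1% ± 1.86 in the NAA50 line. Photosystem I genes stayed between 14.7% and 17.3% of the 50 genes' counts in every library. Electron transport and ATP synthase genes rose from 5.66% ± 0.129 to 7.97% ± 0.286 of them by 24 h in the scrambled line and from 5.76% ± 0.131 to 8.87% ± 1.15 in the NAA50 line. These shares describe counts without a correction for transcript length.

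**Figure D1:**
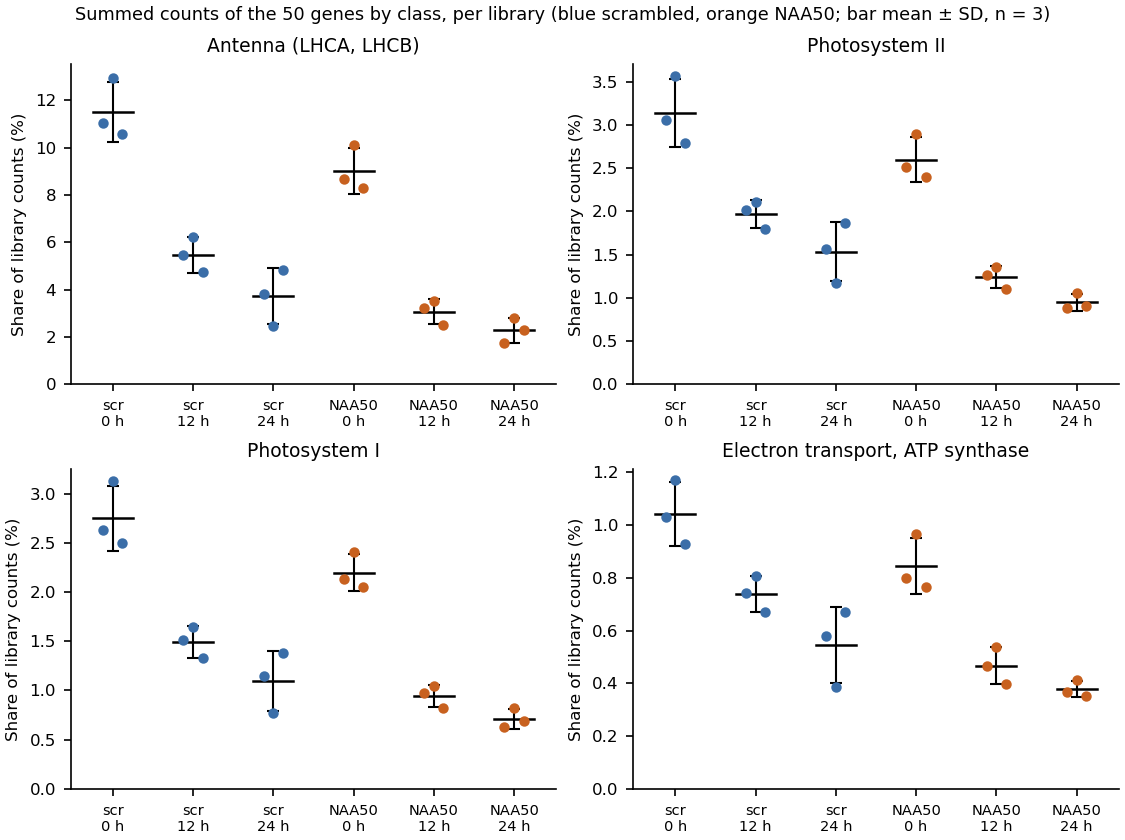
Summed counts of the antenna, photosystem II, photosystem I and electron transport genes as a percentage of each library's counts (vertical axes, each from 0), by line and time; points are libraries and bars give the mean ± SD of 3. The antenna falls from 11.5% to 3.71% in the scrambled line and from 9.02% to 2.28% in the NAA50 line between 0 and 24 h.

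Levels compared between genes were divided by exon length (CPM per kb). At 0 h in the scrambled line LHCB1.3 was highest at 11799 ± 1363 CPM per kb (SD, n = 3), followed by LHCB1.5 at 10131 ± 1654, LHCA4 at 8850 ± 1337, LHCB3 at 8638 ± 1778 and LHCB5 at 6983 ± 1458. Each of these neighbours in the order differed by less than the sum of their SDs, so their order was not resolved. At the other end stood LHCB4.3, an isoform of the minor antenna protein CP29, at 68.2 ± 15.1 CPM per kb, LHCA6 at 149 ± 50.4, the plastocyanin gene PETE1 at 216 ± 40.7 and LHCA5 at 239 ± 50.9. LHCA5 and LHCA6 encode the minor antenna proteins that join photosystem I to the NADH dehydrogenase-like complex.

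The control line itself changed widely after the spray. From 0 to 12 h, 44 of the 50 genes were called lower (adjusted p under 0.05), where 20.5% of all tested genes were called lower, and from 0 to 24 h all 50 were, against 26.5%. No member was called higher. The median log2 change of the 50 was -0.84 at 12 h and -1.44 at 24 h, against 0.01 and -0.00 for all tested genes. Without scrambled 0 h library 2 the counts were 33 and 49, with medians of -0.70 and -1.29. Members fell in the NAA50 line too, 49 of 50 by 12 h (24.4% of all tested genes called lower) and 49 of 50 by 24 h (26.4%), with medians of -1.37 and -1.66. The antenna had the lowest class median at both times in both lines, -1.65 at 24 h in the scrambled line against -1.22 for photosystem II, -1.44 for photosystem I and -1.08 for electron transport. FD2, the leaf ferredoxin that accepts electrons from photosystem I, was the gene not called in the NAA50 line, at -0.44 ± 0.27 (adjusted p = 0.182) by 12 h and -0.65 ± 0.27 (adjusted p = 0.0521) by 24 h. A clock gene moved beside these falls. LHY, a morning gene of the circadian clock, went from 149, 142 and 138 CPM at 0 h to 895, 883 and 908 CPM at 12 h and 612, 589 and 656 CPM at 24 h in the scrambled line. Its part in the fall was not tested.

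**Figure D2:**
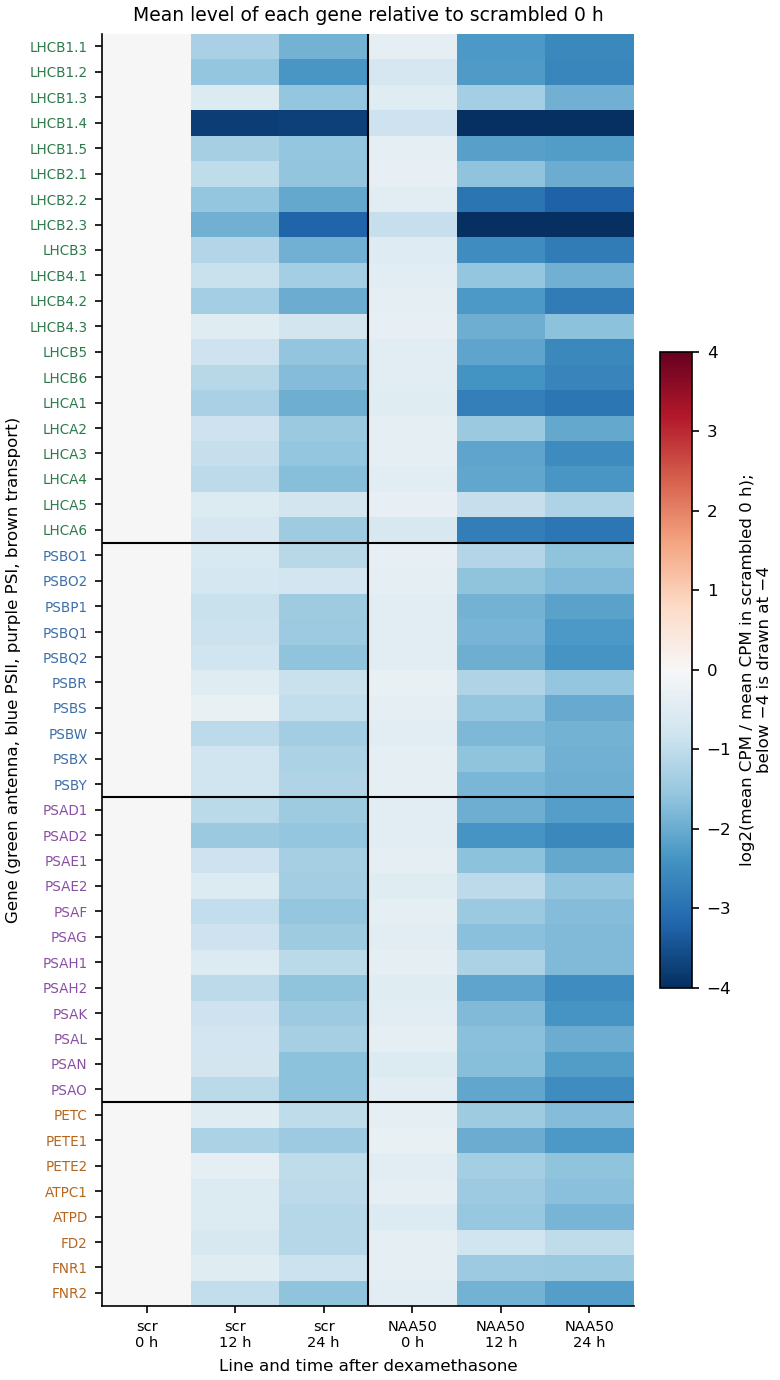
Mean level of each of the 50 genes in the 6 groups as log2 of the ratio to the scrambled 0 h mean (colour; values below −4 are drawn at −4), with genes grouped as antenna, photosystem II, photosystem I and electron transport. LHCB1.4 and LHCB2.3 are darkest in the NAA50 line at 12 and 24 h, and FD2 is among the palest.

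At 0 h the lines already stood slightly apart. All 50 genes had lower fitted levels in the NAA50 line, with a median log2 difference of -0.41 against 0.00 for all tested genes, and the members ranged from -0.91 (LHCB2.3) to -0.29 (PSBR). Without scrambled 0 h library 2 the median was -0.25 and the members ranged from -0.60 to -0.07, still all below zero, with FD2 going from -0.35 to -0.07 and LHCA5 from -0.33 to -0.14. None passed the test, where 0.0109% of all tested genes were called lower and 0.0981% in either direction by edgeR. At an unadjusted p under 0.05 there were 11 members, and DESeq2 also called 0. The 3 NAA50 libraries lay below the 3 scrambled libraries for 23 of the 50 genes, against 7.29% of all tested genes. The differences at 12 and 24 h below include this starting difference, and the knockdown response further on takes it away.

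At 12 h nearly every member was lower in the NAA50 line. The call was made for 45 of 50 genes, where 24.35% of all tested genes were called lower, and none was higher. The median log2 difference was -0.93, against -0.03 over all tested genes. By class the calls were 18 of 20 antenna genes (median -1.10), 10 of 10 photosystem II genes (-0.96), 10 of 12 photosystem I genes (-0.89) and 7 of 8 electron transport and ATP synthase genes (-0.92). Libraries of the lines did not overlap for 49 of the 50, against 31.1% of all tested genes. LHCB1.2, LHCA5, PSAE2, PSAF and FD2 did not pass. Scaling by library totals alone moved the median of all tested genes from -0.03 to 0.14, changed the split of all calls from 4018 higher and 4466 lower to 5442 and 3093, and called 41 members lower with a median of -0.76.

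At 24 h most members were again lower in the NAA50 line. The call was made for 41 of 50 genes, where 24.07% of all tested genes were called lower, and the median was -0.72 against -0.03. Classes gave 16 of 20 antenna genes (-0.84), 10 of 10 photosystem II genes (-0.74), 8 of 12 photosystem I genes (-0.70) and 7 of 8 of the last class (-0.63). The lines did not overlap for 23 members, against 26.6% of all tested genes. That count of calls rests on few libraries, being 22 once library 3 of the scrambled line at 24 h was left out, 25 once library 1 of the NAA50 line at 24 h was, and 23 when only the 24 h libraries were fitted. None of the 50 passed the test of the 24 h difference minus the 12 h difference, where 6.77% of all tested genes passed in either direction by edgeR. At an unadjusted p under 0.05 there were also 0 members, and 4367 of all tested genes.

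**Figure D3:**
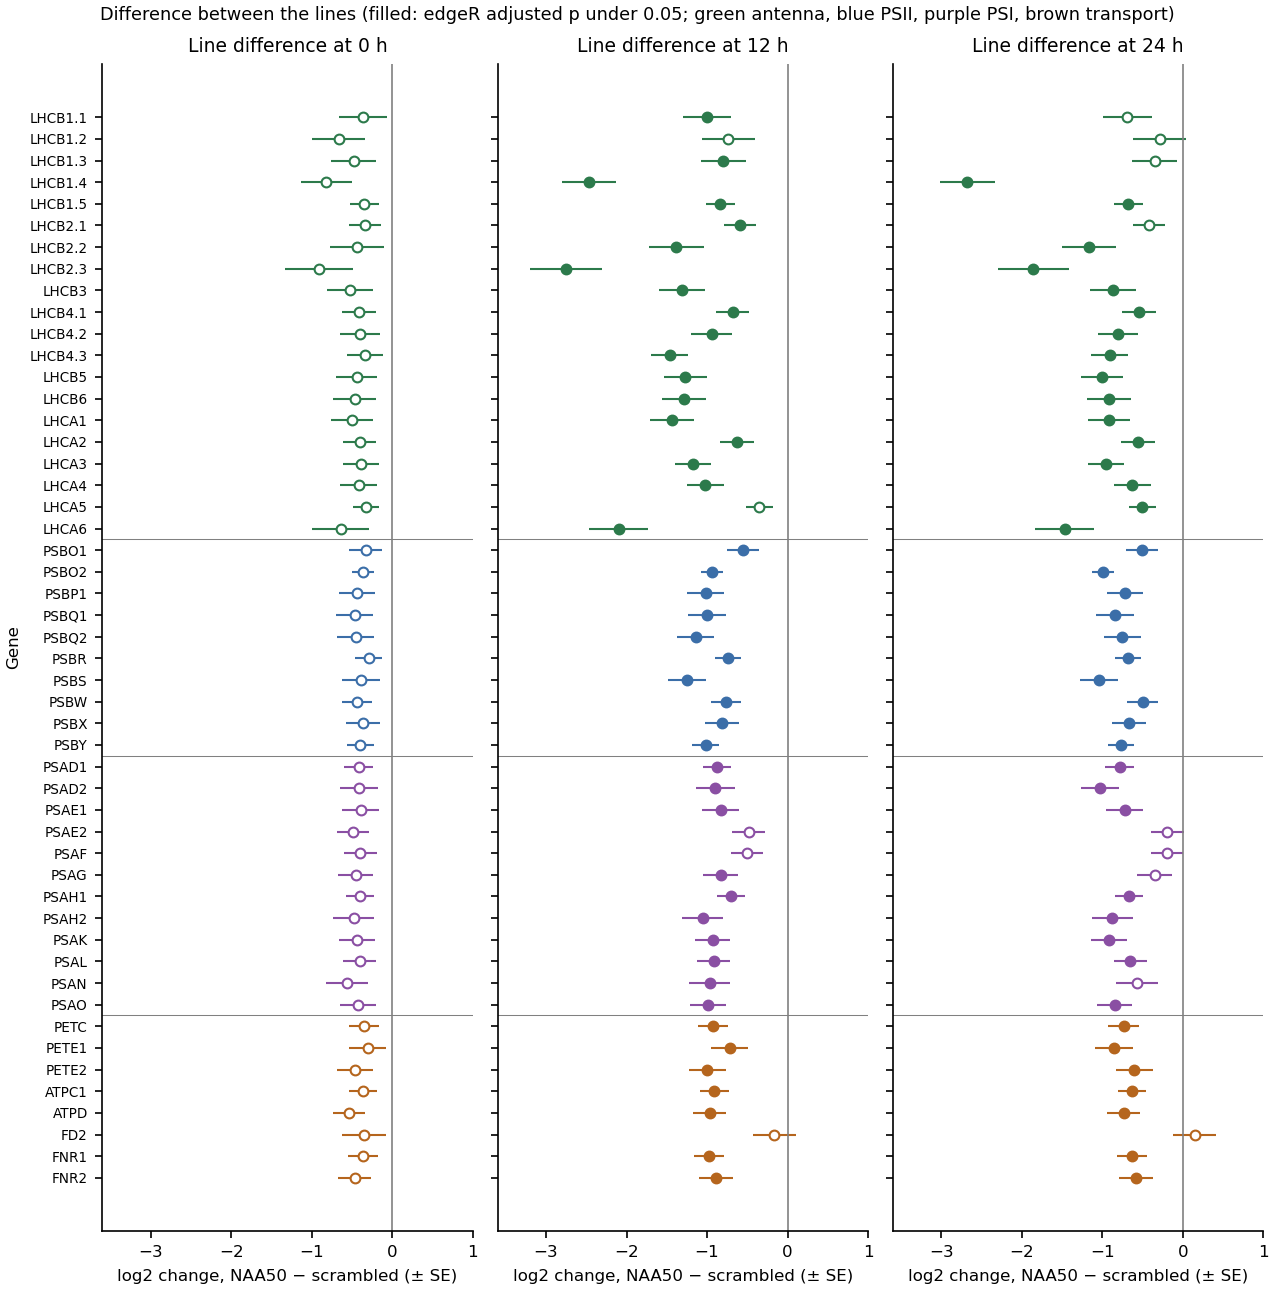
Log2 difference between the lines (NAA50 minus scrambled, ± SE of the fit) for each of the 50 genes at 0, 12 and 24 h; filled points passed the test. At 12 h 45 points are filled and at 24 h 41, all below zero, and LHCB1.4, LHCB2.3 and LHCA6 lie farthest to the left.

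Among the antenna genes, LHCB1 encodes the main protein of the trimeric light-harvesting complex of photosystem II (LHCII), from 5 copies. LHCB1.1, LHCB1.2 and LHCB1.3 lie together on chromosome 1, and LHCB1.4 and LHCB1.5 lie head to head on chromosome 2 (LHCB1.4 at chr2:14524607-14525918 on the plus strand and LHCB1.5 at chr2:14522524-14523568 on the minus strand of TAIR10.1). LHCB1.4 (AT2G34430) had 4022, 6774 and 3994 CPM in the scrambled line at 0 h, 275, 540 and 281 CPM at 12 h, and 355, 219 and 538 CPM at 24 h. In the NAA50 line LHCB1.4 had 2299, 3324 and 2775 CPM at 0 h, 55.4, 72.6 and 70.7 CPM at 12 h, and 58.7, 65.2 and 49.8 CPM at 24 h. Every library at 12 and 24 h was far below every library at 0 h, and at each time every NAA50 library was below every scrambled one. LHCB1.4 fell 13.5-fold by 12 h in the scrambled line (log2 change -3.75 ± 0.35, adjusted p = 9.47e-07) and 42.3-fold in the NAA50 line (-5.40 ± 0.38, adjusted p = 3.04e-08). The lines differed 5.52-fold at 12 h (-2.46 ± 0.34, adjusted p = 3.52e-05) and 6.41-fold at 24 h (-2.68 ± 0.34, adjusted p = 1.47e-05).

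The head-to-head neighbour LHCB1.5 (AT2G34420) had smaller differences. It had 9675, 12580 and 9507 CPM in the scrambled line at 0 h, 4347, 4278 and 3926 CPM at 12 h, and 3698, 2791 and 4317 CPM at 24 h. LHCB1.5 in the NAA50 line had 8112, 9153 and 7740 CPM at 0 h, 2430, 2594 and 2010 CPM at 12 h, and 1967, 2573 and 2205 CPM at 24 h. The lines did not overlap at any time, and the difference was 1.78-fold at 12 h (-0.84 ± 0.18, adjusted p = 0.00168) and 1.60-fold at 24 h (-0.68 ± 0.18, adjusted p = 0.00634). Genes annotated on the opposite strand cover all 1045 bases of LHCB1.5, and the strand setting of the counting is not given in the sources used here, so its reads and theirs may not have been separated.

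LHCB1.3 (AT1G29930) had the highest mean level of the 5 copies in every group. It had 13510, 16448 and 13580 CPM at 0 h in the scrambled line, 9777, 11783 and 8209 CPM at 12 h, and 5136, 3037 and 6580 CPM at 24 h. LHCB1.3 in the NAA50 line had 9711, 11765 and 9821 CPM at 0 h, 6136, 6853 and 4122 CPM at 12 h, and 2905, 5159 and 3494 CPM at 24 h. It passed at 12 h (-0.80 ± 0.28, adjusted p = 0.0290) and not at 24 h (-0.35 ± 0.28, adjusted p = 0.314), where the lines overlapped. The 12 h call for LHCB1.3 was lost in 5 of 24 other settings. LHCB1.2 had 4714, 5860 and 4486 CPM in scrambled libraries at 0 h, 1632, 2119 and 1423 CPM at 12 h, and 903, 539 and 1568 CPM at 24 h. LHCB1.2 in the NAA50 line had 2886, 3598 and 3027 CPM at 0 h, 1170, 1151 and 788 CPM at 12 h, and 513, 1135 and 823 CPM at 24 h. Its libraries were lower in the NAA50 line at 0 and 12 h and overlapped at 24 h. LHCB1.2 did not pass at either time, at -0.73 ± 0.33 (adjusted p = 0.0812) and -0.29 ± 0.33 (adjusted p = 0.497), and LHCB1.1 passed at 12 h (-1.0 ± 0.30, adjusted p = 0.0135) and not at 24 h (-0.69 ± 0.30, adjusted p = 0.0708).

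The makeup of LHCB1 transcripts therefore shifted. Shares within a gene family were taken from CPM per kb. LHCB1.4 made up 10.3% ± 1.60 of the LHCB1 total in the scrambled line at 0 h, 1.69% ± 0.474 at 12 h and 2.72% ± 0.299 at 24 h. In the NAA50 line its shares were 8.23% ± 0.789, 0.584% ± 0.181 and 0.652% ± 0.158. LHCB1.3 rose from 33.2% ± 1.41 to 49.6% ± 1.75 at 12 h in the scrambled line and from 32.9% ± 0.115 to 51.2% ± 2.18 in the NAA50 line. By 24 h its share was 39.0% ± 1.83 in the scrambled line and 44.5% ± 2.08 in the NAA50 line. Between 10.6% and 20.5% of the 50-base windows of each LHCB1 transcript also occur in another LHCB1 gene, so reads could be shared there, and no member's transcript was 95% identical to another over 50% of its length.

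**Figure D4:**
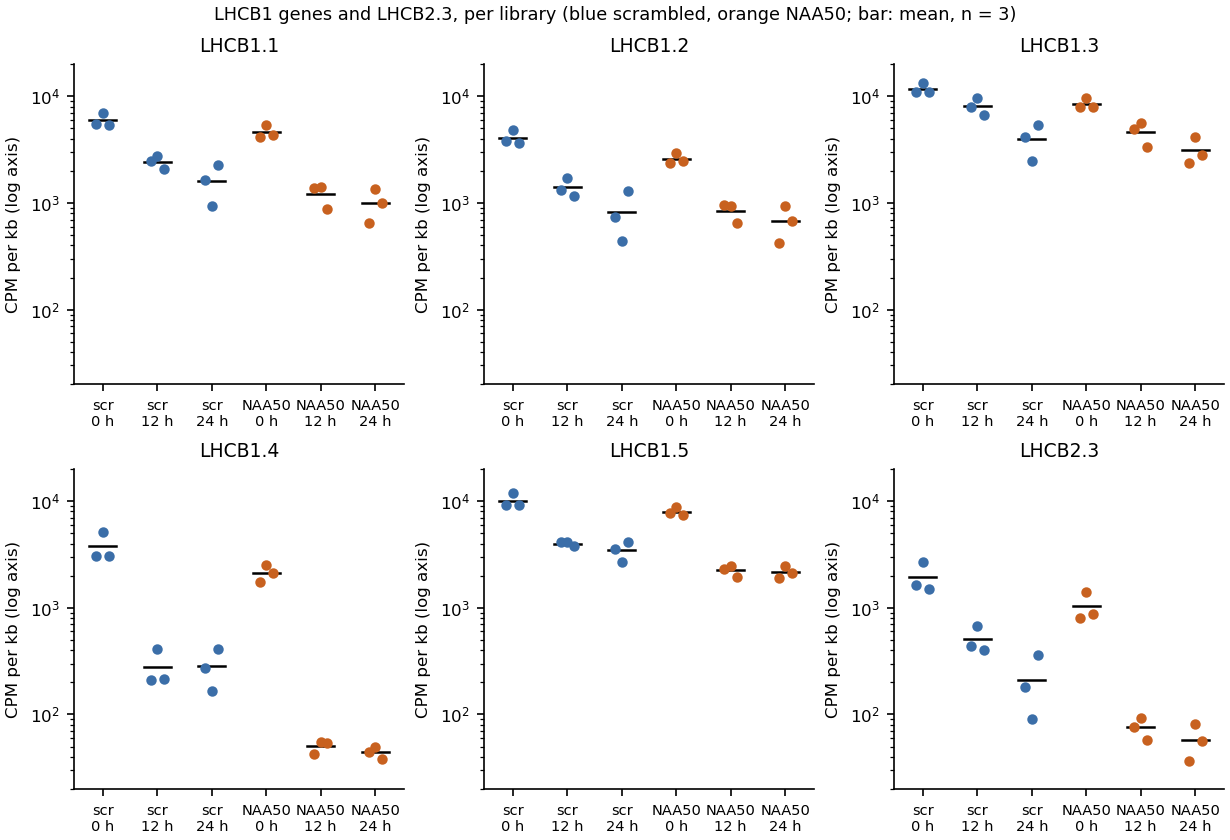
Level per exon length (CPM per kb, log axis) of the LHCB1 copies and LHCB2.3 in each library (points) with the mean of 3 (bar), by line and time. LHCB1.4 and LHCB2.3 drop furthest, and LHCB1.3 has the highest LHCB1 mean in every group.

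LHCB2 encodes the LHCII protein whose phosphorylation drives state transitions, and its copies also parted. LHCB2.3 (AT3G27690, chr3:10255906-10257489, plus strand) had 2369, 3928 and 2216 CPM in the scrambled line at 0 h, 648, 995 and 590 CPM at 12 h, and 265, 131 and 529 CPM at 24 h. LHCB2.3 in the NAA50 line had 1187, 2065 and 1285 CPM at 0 h, 112, 136 and 84.0 CPM at 12 h, and 53.1, 120 and 82.1 CPM at 24 h. All NAA50 libraries were below all scrambled ones at each time, with a 6.73-fold difference at 12 h (-2.75 ± 0.45, adjusted p = 1.73e-04) and 3.62-fold at 24 h (-1.86 ± 0.44, adjusted p = 0.00263). A gene on the opposite strand overlaps 595 of its bases. LHCB2.2 was 2.60-fold lower at 12 h (-1.38 ± 0.34, adjusted p = 0.00367), and LHCB2.1 was 1.51-fold lower (-0.59 ± 0.20, adjusted p = 0.0231). The 12 h call for LHCB2.1 was lost in 4 of 24 other settings. LHCB2.1 rose from 41.6% ± 1.95 of the LHCB2 total (CPM per kb) to 52.9% ± 3.44 at 12 h in the scrambled line. It went from 45.7% ± 2.25 to 70.2% ± 3.16 in the NAA50 line. LHCB2.3 went the other way in both lines. In the scrambled line its share of that total fell from 20.2% ± 1.94 at 0 h to 13.6% ± 2.37 at 12 h and 8.18% ± 3.11 at 24 h. Over the NAA50 libraries it was 12.8% to 17.7% at 0 h and 3.72% to 4.62% at 12 h. LHCB2.1 and LHCB2.2 share 22.7% and 28.2% of their 50-base windows, and LHCB2.3 shares none.

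The sequences upstream of 5 of these genes are shown because they lie before the copies with the largest differences between the lines, LHCB1.4 and LHCB2.3, before LHCB1.5 and LHCB1.3 as copies with smaller ones, and before FD2, which did not pass the test. Each is the 250 bases before the annotated start in RefSeq TAIR10.1, read 5′ to 3′ on the gene's strand: chr2:14524357-14524606 (plus), chr2:14523569-14523818 (minus), chr1:10477635-10477884 (plus), chr3:10255656-10255905 (plus) and chr1:22444057-22444306 (plus). Capitals mark matches, on either strand, to the G-box CACGTG, the I-box GATAAG, the element CCAATC found before genes that respond to the GLK factors, and the evening element core AATATCT. None of these 4 strings contains another.
LHCB1.4: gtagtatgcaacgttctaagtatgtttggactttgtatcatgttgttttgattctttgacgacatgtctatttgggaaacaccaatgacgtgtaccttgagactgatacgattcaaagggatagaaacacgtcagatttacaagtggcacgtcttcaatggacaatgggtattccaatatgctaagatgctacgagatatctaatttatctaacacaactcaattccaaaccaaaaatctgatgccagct
LHCB1.5: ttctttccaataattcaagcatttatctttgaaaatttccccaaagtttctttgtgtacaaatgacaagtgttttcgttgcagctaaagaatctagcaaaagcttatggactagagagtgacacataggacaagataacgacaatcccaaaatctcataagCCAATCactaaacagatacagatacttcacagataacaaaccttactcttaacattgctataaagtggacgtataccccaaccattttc
LHCB1.3: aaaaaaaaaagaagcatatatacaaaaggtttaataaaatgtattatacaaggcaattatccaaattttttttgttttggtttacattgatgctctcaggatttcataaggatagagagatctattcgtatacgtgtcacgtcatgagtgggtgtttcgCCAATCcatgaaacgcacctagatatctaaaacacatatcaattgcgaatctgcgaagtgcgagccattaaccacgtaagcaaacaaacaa
LHCB2.3: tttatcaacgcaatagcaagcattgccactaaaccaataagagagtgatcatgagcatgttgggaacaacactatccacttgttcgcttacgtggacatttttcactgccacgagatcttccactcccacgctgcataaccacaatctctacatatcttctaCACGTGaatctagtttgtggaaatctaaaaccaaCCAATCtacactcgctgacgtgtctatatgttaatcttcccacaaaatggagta
FD2: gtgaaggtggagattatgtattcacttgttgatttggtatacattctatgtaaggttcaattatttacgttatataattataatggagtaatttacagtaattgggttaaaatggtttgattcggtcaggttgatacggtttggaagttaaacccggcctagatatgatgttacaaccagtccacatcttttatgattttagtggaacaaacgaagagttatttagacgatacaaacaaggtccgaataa

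In these windows LHCB1.4 and FD2 held none of the 4 strings. LHCB1.3 and LHCB1.5 each held CCAATC, starting 91 and 89 bases before the start, and LHCB2.3 held CACGTG 88 and CCAATC 54 bases before it. Windows of 300 bases (250 before to 50 after the start) were also searched. CCAATC was present in the windows of 11 of the 20 antenna genes and 3 of the 10 photosystem II genes. It was in those of 1 of the 12 photosystem I genes, 3 of the 8 others and 3389 of all 27443 protein-coding genes. The matches of PSAF, the photosystem I gene, and of PSBQ1 lay after the start. The I-box was most frequent in the windows of photosystem I genes (66.7%), with 62.5% for electron transport and ATP synthase genes and 14.6% of all. The G-box was most frequent in those of photosystem II genes (60.0%, against 7.7% of all). Some of these matches lay after the start, such as the G-boxes of PSBO1, PSBO2, PSBR and PSBW and the I-boxes of PSAD2, PSAH1, PSAL and PSAO. The evening element core was present in the windows of 14.0% of the 50 genes and 11.5% of all. These are matches of letters and not binding sites.

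The remaining antenna genes differed less between the lines at 12 and 24 h than LHCB1.4 and LHCB2.3, though not all less than the other LHCB1 and LHCB2 copies. LHCB3, an LHCII trimer subunit, was 2.48-fold lower at 12 h (-1.31 ± 0.29, adjusted p = 0.00175), and LHCB5 (CP26) and LHCB6 (CP24), monomeric linkers of LHCII to the core, were 2.41-fold and 2.44-fold lower. LHCB4.3 had 88.1, 124 and 84.2 CPM in the scrambled line at 0 h, 72.7, 75.5 and 63.4 CPM at 12 h, and 61.3, 49.1 and 68.6 CPM at 24 h. LHCB4.3 in the NAA50 line had 78.2, 100 and 55.4 CPM at 0 h, 22.9, 32.7 and 21.0 CPM at 12 h, and 37.9, 31.6 and 25.9 CPM at 24 h. The lines overlapped for LHCB4.3 at 0 h and were separate later, by 2.76-fold at 12 h (-1.46 ± 0.23, adjusted p = 1.22e-04) and 1.88-fold at 24 h (-0.91 ± 0.23, adjusted p = 0.00404).

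Of the photosystem I antenna, LHCA6 had 151, 240 and 130 CPM in the scrambled line at 0 h, 116, 125 and 88.0 CPM at 12 h, and 69.2, 32.9 and 91.8 CPM at 24 h. LHCA6 in the NAA50 line had 101, 151 and 82.4 CPM at 0 h, 24.8, 35.5 and 16.3 CPM at 12 h, and 19.5, 29.8 and 20.8 CPM at 24 h. It was 4.28-fold lower at 12 h (-2.10 ± 0.37, adjusted p = 3.24e-04), whereas its partner LHCA5 stood at -0.35 ± 0.16 and did not pass (adjusted p = 0.0927). At 24 h both were called lower, LHCA6 at -1.47 and LHCA5 at -0.50. The LHCA5 call was lost in 2 of 24 other settings. LHCA3 (AT1G61520), a core antenna subunit of photosystem I, had 7069, 9746 and 7054 CPM in scrambled libraries at 0 h, 4375, 4561 and 3656 CPM at 12 h, and 2804, 1878 and 3427 CPM at 24 h. LHCA3 in the NAA50 line had 6067, 6956 and 5228 CPM at 0 h, 1978, 2067 and 1531 CPM at 12 h, and 1193, 1643 and 1343 CPM at 24 h. The lines were separate at every time, with a 2.26-fold difference at 12 h (-1.18 ± 0.22, adjusted p = 5.76e-04) and a log2 difference of -0.96 ± 0.22 at 24 h (adjusted p = 0.00242).

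All 10 photosystem II genes were called lower at both times in the main fit. The 24 h call was lost in 5 of 24 other settings for PSBW, 4 for PSBP1, 4 for PSBX and 3 for PSBQ2. The fit to the groups compared alone was among these settings for each of them. PSBO1 and PSBO2 encode the extrinsic protein that stabilises the manganese cluster of water oxidation. PSBO2 had 1968, 2605 and 1947 CPM in the scrambled line at 0 h, 1361, 1412 and 1270 CPM at 12 h, and 1306, 1169 and 1330 CPM at 24 h. PSBO2 in the NAA50 line had 1612, 1941 and 1504 CPM at 0 h, 701, 769 and 648 CPM at 12 h, and 644, 620 and 646 CPM at 24 h. Its lines never overlapped, and the spread at 24 h was small, giving a 1.99-fold difference (-0.99 ± 0.14, adjusted p = 3.35e-05) after a 1.91-fold one at 12 h (-0.93 ± 0.14, adjusted p = 6.87e-05). For PSBO1 (AT5G66570), the copy with more counts, the scrambled libraries held 7007, 8951 and 5765 CPM at 0 h, 4848, 5060 and 4283 CPM at 12 h, and 3472, 2584 and 4052 CPM at 24 h. PSBO1 in the NAA50 libraries came to 5571, 6617 and 5110 CPM at 0 h, 3373, 3427 and 2861 CPM at 12 h, and 2384, 2758 and 1963 CPM at 24 h. PSBO1 passed with smaller differences, -0.55 ± 0.20 (adjusted p = 0.0336) and -0.51 ± 0.20 (adjusted p = 0.0477), and its 24 h libraries overlapped. Over 24 other settings the call for PSBO1 was lost in 7 at 12 h (highest adjusted p = 0.115) and in 15 at 24 h (highest adjusted p = 0.190), the fit to the groups compared alone included.

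PSBS, the sensor of energy-dependent quenching, did not pass the test for a change in the control by 12 h. It had 2074, 2697 and 2018 CPM in the scrambled line at 0 h, 1971, 1968 and 1568 CPM at 12 h, and 1232, 753 and 1430 CPM at 24 h. PSBS in the NAA50 line had 1615, 2187 and 1397 CPM at 0 h, 782, 924 and 609 CPM at 12 h, and 522, 643 and 498 CPM at 24 h. The 12 h groups were far apart, by 2.38-fold (-1.25 ± 0.24, adjusted p = 5.86e-04), and the scrambled line's own change from 0 to 12 h did not pass (-0.30 ± 0.23, adjusted p = 0.314). For PSBY, a small membrane subunit, the scrambled libraries held 1418, 1856 and 1296 CPM at 0 h, 919, 896 and 794 CPM at 12 h, and 658, 530 and 803 CPM at 24 h. PSBY in the NAA50 libraries came to 1073, 1318 and 1089 CPM at 0 h, 436, 470 and 382 CPM at 12 h, and 368, 418 and 383 CPM at 24 h. PSBY was lower at both times, with separate libraries (-1.02 ± 0.17, adjusted p = 1.66e-04, and -0.77 ± 0.17, adjusted p = 0.00138). For PSBR, which helps to hold the oxygen-evolving proteins, the scrambled libraries held 4914, 6404 and 4894 CPM at 0 h, 4073, 4004 and 3575 CPM at 12 h, and 2924, 2376 and 3522 CPM at 24 h. PSBR in the NAA50 libraries came to 4421, 4903 and 3913 CPM at 0 h, 2404, 2489 and 2086 CPM at 12 h, and 1795, 1995 and 1709 CPM at 24 h. PSBR had the highest level per kb of the photosystem II genes and was lower at 12 h (-0.74 ± 0.17, adjusted p = 0.00204).

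Photosystem I genes split between subunits. PSAD1 and PSAD2 encode the stromal subunit that docks ferredoxin. For PSAD1 the scrambled libraries held 2674, 3351 and 2552 CPM at 0 h, 1382, 1418 and 1236 CPM at 12 h, and 1117, 803 and 1308 CPM at 24 h. PSAD1 in the NAA50 libraries came to 2103, 2409 and 1914 CPM at 0 h, 754, 800 and 646 CPM at 12 h, and 538, 711 and 622 CPM at 24 h. PSAD1 was 1.83-fold lower at 12 h (-0.87 ± 0.18, adjusted p = 9.90e-04) and 1.73-fold lower at 24 h (-0.79 ± 0.18, adjusted p = 0.00201). PSAD2 had 1267, 1621 and 1236 CPM in scrambled libraries at 0 h, 497, 557 and 433 CPM at 12 h, and 510, 356 and 545 CPM at 24 h. PSAD2 in the NAA50 line had 1013, 1179 and 905 CPM at 0 h, 275, 311 and 212 CPM at 12 h, and 141, 286 and 263 CPM at 24 h. PSAD2 was 2.04-fold lower at the later time (-1.03 ± 0.24, adjusted p = 0.00246). Libraries of the lines were separate for both genes at all 3 times.

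PSAK, PSAL and PSAO lie at the sides of photosystem I where antennae attach. For PSAK the scrambled libraries held 2107, 2852 and 1935 CPM at 0 h, 1280, 1450 and 1144 CPM at 12 h, and 841, 573 and 1097 CPM at 24 h. PSAK in the NAA50 libraries came to 1578, 1978 and 1530 CPM at 0 h, 704, 748 and 580 CPM at 12 h, and 413, 537 and 380 CPM at 24 h. PSAK was 1.91-fold lower at 12 h and 1.89-fold lower at 24 h. PSAL had 3992, 5419 and 3930 CPM in scrambled libraries at 0 h, 2675, 2875 and 2321 CPM at 12 h, and 1832, 1259 and 2190 CPM at 24 h. PSAL in the NAA50 line had 3322, 3785 and 3000 CPM at 0 h, 1448, 1548 and 1176 CPM at 12 h, and 1029, 1318 and 1004 CPM at 24 h. PSAL was 1.89-fold lower at 12 h (-0.92 ± 0.20, adjusted p = 0.00195) and 1.58-fold lower at 24 h. Its 24 h libraries overlapped, and that call was lost in 4 of 24 other settings. For PSAO the scrambled libraries held 3228, 4316 and 3050 CPM at 0 h, 1657, 1906 and 1411 CPM at 12 h, and 1162, 767 and 1493 CPM at 24 h. PSAO in the NAA50 libraries came to 2603, 2954 and 2343 CPM at 0 h, 858, 922 and 731 CPM at 12 h, and 564, 753 and 585 CPM at 24 h. PSAO was 1.98-fold lower at 12 h (-0.99 ± 0.22, adjusted p = 0.00194).

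PSAE2, PSAF, PSAG and PSAN did not pass at 1 or both times. For PSAE2, 1 of 2 copies of another stromal subunit, the scrambled libraries held 554, 686 and 514 CPM at 0 h, 392, 450 and 346 CPM at 12 h, and 215, 157 and 300 CPM at 24 h. PSAE2 in the NAA50 libraries came to 397, 466 and 391 CPM at 0 h, 296, 312 and 242 CPM at 12 h, and 184, 233 and 171 CPM at 24 h. PSAE2 did not pass at 12 h (-0.48 ± 0.20, adjusted p = 0.0609) or at 24 h (-0.19 ± 0.20, adjusted p = 0.451), and its 24 h libraries overlapped. The other copy, PSAE1, was called at both times (-0.83 and -0.72). Its 24 h libraries overlapped, and that call was lost in 4 of 24 other settings. PSAE2 held 33.6% ± 0.0371 of the PSAE total (CPM per kb) at 12 h in NAA50 libraries, and 28.4% ± 0.916 in scrambled ones. PSAF, the docking subunit for plastocyanin, did not pass at 12 h (-0.50 ± 0.20, adjusted p = 0.0551) or 24 h (-0.20 ± 0.20, adjusted p = 0.444). PSAG passed at 12 h (-0.83 ± 0.22, adjusted p = 0.00581) and not at 24 h (-0.35 ± 0.22, adjusted p = 0.201), and PSAN, on the lumenal side, likewise (-0.97 ± 0.26, adjusted p = 0.00673, and -0.57 ± 0.26, adjusted p = 0.0832). Genes on the opposite strand overlap 479 bases of PSAG, 436 of PSAE1 and 788 of PSAH1, so their reads and those of the overlapping genes may not have been separated.

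In electron transport and ATP synthesis, 7 of 8 genes were called lower in the NAA50 line at both times in the main fit, and FD2 did not pass. The 24 h call was lost in 6 of 24 other settings for FNR2 and in 1 for FNR1. For PETC, the Rieske protein of the cytochrome b6f complex, the scrambled libraries held 1462, 1911 and 1351 CPM at 0 h, 1166, 1179 and 1006 CPM at 12 h, and 830, 575 and 945 CPM at 24 h. PETC in the NAA50 libraries came to 1175, 1475 and 1065 CPM at 0 h, 579, 679 and 506 CPM at 12 h, and 488, 494 and 429 CPM at 24 h. PETC was lower at 12 and 24 h (-0.93 ± 0.19, adjusted p = 0.00108, and -0.74 ± 0.19, adjusted p = 0.00505). ATPC1, the gamma subunit of ATP synthase, had 1427, 1788 and 1182 CPM in scrambled libraries at 0 h, 1056, 1040 and 904 CPM at 12 h, and 747, 561 and 842 CPM at 24 h. ATPC1 in the NAA50 line had 1067, 1311 and 1044 CPM at 0 h, 549, 594 and 455 CPM at 12 h, and 470, 490 and 426 CPM at 24 h. ATPC1 was lower at 12 h (-0.91 ± 0.18, adjusted p = 6.58e-04). For FNR1 the scrambled libraries held 1138, 1499 and 1184 CPM at 0 h, 924, 982 and 844 CPM at 12 h, and 745, 527 and 828 CPM at 24 h. FNR1 in the NAA50 libraries came to 991, 1180 and 809 CPM at 0 h, 454, 542 and 401 CPM at 12 h, and 488, 472 and 396 CPM at 24 h. FNR1 was lower at 12 h as well (-0.98 ± 0.19, adjusted p = 5.84e-04). PETC, ATPC1 and FNR1 had separate groups at 12 and 24 h.

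PETE1 and PETE2 encode plastocyanin, the copper protein that reduces photosystem I. For PETE1 the scrambled libraries held 228, 269 and 183 CPM at 0 h, 94.3, 106 and 82.8 CPM at 12 h, and 77.4, 60.9 and 111 CPM at 24 h. PETE1 in the NAA50 libraries came to 165, 211 and 174 CPM at 0 h, 62.5, 64.7 and 44.9 CPM at 12 h, and 33.7, 58.8 and 45.1 CPM at 24 h. PETE1 was the minor copy. PETE2 had 3112, 3786 and 2892 CPM in scrambled libraries at 0 h, 2540, 2910 and 2230 CPM at 12 h, and 1718, 1075 and 2040 CPM at 24 h. PETE2 in the NAA50 line had 2228, 2895 and 2001 CPM at 0 h, 1317, 1487 and 1049 CPM at 12 h, and 1024, 1239 and 920 CPM at 24 h. The plastocyanin genes PETE1 and PETE2 were 1.64-fold and 1.99-fold lower at 12 h and 1.81-fold and 1.52-fold lower at 24 h. The 24 h libraries overlapped for PETE2, and that call was lost in 5 of 24 other settings (highest adjusted p = 0.178). For PETE1 the 12 h call was lost in 3 of them. PETE2 gave 90.9% to 95.5% of the plastocyanin total (CPM per kb) in the group means.

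FD2 (AT1G60950) had 1283, 2006 and 1175 CPM in the scrambled line at 0 h, 1005, 1053 and 819 CPM at 12 h, and 791, 378 and 842 CPM at 24 h. In the NAA50 line FD2 had 1020, 1319 and 1161 CPM at 0 h, 903, 991 and 678 CPM at 12 h, and 805, 823 and 599 CPM at 24 h. The lines overlapped at all 3 times, with differences of -0.35 ± 0.27, -0.16 ± 0.27 and 0.15 ± 0.27 (adjusted p = 0.553, 0.653 and 0.677). The sign at 12 h turned to 0.0065 with library totals alone, and at 24 h to -0.14 without scrambled 24 h library 2, whose FD2 level of 378 CPM was the lowest of all.

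The knockdown response, the difference between the lines at a time minus that at 0 h, was called for few members. At 12 h 5 of 50 were called lower, where 13.2% of all tested genes were, and the median was -0.52 against -0.06. They were LHCB1.4 (-1.65 ± 0.45, adjusted p = 0.0154), LHCB2.3 (-1.84 ± 0.60, adjusted p = 0.0352), LHCB4.3 (-1.12 ± 0.32, adjusted p = 0.0177), LHCA6 (-1.46 ± 0.50, adjusted p = 0.0446) and PSBO2 (-0.57 ± 0.19, adjusted p = 0.0424). At 24 h 2 of 50 were called lower, where 15.1% of all tested genes were, with a median of -0.33 against -0.05. These were LHCB1.4 (-1.86 ± 0.45, adjusted p = 0.00664) and PSBO2 (-0.63 ± 0.19, adjusted p = 0.0233). The responses at the 2 times share the 0 h libraries and are not independent. With 1 library left out, the median ranged from -0.65 to -0.40 at 12 h and from -0.51 to -0.11 at 24 h, and without scrambled 0 h library 2 it was -0.65 and -0.48.

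By class the median response at 12 h was -0.71 for the antenna, -0.55 for photosystem II, -0.45 for photosystem I and -0.49 for the rest, and at 24 h -0.38, -0.34, -0.30 and -0.24. No photosystem I or electron transport gene was called in either response, and 0 and 3 of them had an unadjusted p under 0.05 at 12 h and 0 and 0 at 24 h. DESeq2 called 9 members at 12 h and a fit to the 4 groups alone called 8. With 1 library left out, the 12 h count fell to 2 for libraries 1 and 3 at 0 h and library 2 at 12 h of the scrambled line, and for library 2 at 0 h and libraries 1 and 3 at 12 h of the NAA50 line. It fell to 3 for the library numbered 1 of the scrambled line at 12 or 24 h and of the NAA50 line at 0 or 24 h, and rose to 9 for the library numbered 2 of the scrambled line at 0 or 24 h. The 24 h count fell to 1 for libraries 1 and 3 at 0 h and library 1 at 24 h of the scrambled line, and for the NAA50 library numbered 2 at 0 or 24 h. LHCB1.4 passed in both responses, and LHCB4.3 in that at 12 h, under every alternative and with any library left out.

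Among 40 other genes of the light reactions (minor subunits, assembly and regulation), 39 were tested. At 12 h 26 were lower in the NAA50 line, against 24.35% of all tested genes, and 1 was higher. At 24 h 18 were lower, against 24.07%, and 2 were higher. The medians were -0.65 and -0.43, against -0.03 at both times for all tested genes. GLK2, a transcription factor for photosynthesis genes, had 255, 307 and 240 CPM in scrambled libraries at 0 h, 249, 236 and 186 CPM at 12 h, and 146, 74.8 and 190 CPM at 24 h. GLK2 in the NAA50 line had 235, 254 and 202 CPM at 0 h, 58.5, 58.6 and 49.0 CPM at 12 h, and 16.6, 20.1 and 39.4 CPM at 24 h. GLK2 was 4.04-fold lower at 12 h (-2.01 ± 0.31, adjusted p = 1.02e-04) and 5.37-fold lower at 24 h (-2.43 ± 0.32, adjusted p = 2.06e-05). Its paralogue GLK1 stood at -0.25 ± 0.09 (adjusted p = 0.0374) and -0.08 ± 0.09 (adjusted p = 0.492). For ELIP2, an early light-induced protein, the scrambled libraries held 89.6, 92.5 and 65.1 CPM at 0 h, 188, 161 and 171 CPM at 12 h, and 104, 49.8 and 96.4 CPM at 24 h. ELIP2 in the NAA50 libraries came to 62.8, 90.0 and 91.6 CPM at 0 h, 37.5, 53.9 and 47.9 CPM at 12 h, and 21.6, 7.0 and 9.32 CPM at 24 h. ELIP2 was thus 3.73-fold and 6.62-fold lower (adjusted p = 3.01e-04 and 1.81e-05), with separate groups at both times.

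Genes of assembly did not all fall. CAO (AT2G47450), also called cpSRP43, is a chloroplast signal recognition particle protein that delivers light-harvesting proteins to the thylakoid. CAO had 478, 545 and 409 CPM in scrambled libraries at 0 h, 271, 271 and 240 CPM at 12 h, and 227, 183 and 265 CPM at 24 h. CAO in the NAA50 line had 361, 418 and 344 CPM at 0 h, 158, 175 and 141 CPM at 12 h, and 79.0, 118 and 115 CPM at 24 h. CAO was lower at both times (-0.72 ± 0.17, adjusted p = 0.00263, and -1.11 ± 0.17, adjusted p = 8.68e-05). For ALB3, the thylakoid insertase for light-harvesting proteins, the scrambled libraries held 552, 736 and 574 CPM at 0 h, 507, 482 and 440 CPM at 12 h, and 395, 323 and 391 CPM at 24 h. ALB3 in the NAA50 libraries came to 533, 551 and 475 CPM at 0 h, 656, 721 and 574 CPM at 12 h, and 629, 716 and 575 CPM at 24 h. ALB3 was higher in the NAA50 line at both times (0.45 ± 0.14, adjusted p = 0.0151, and 0.79 ± 0.14, adjusted p = 2.80e-04). LIL3:2, a light-harvesting-like protein named after its value was seen, was the other higher gene at 24 h (0.57 ± 0.15, adjusted p = 0.00542). OHP2, a one-helix protein, had 270, 338 and 225 CPM in scrambled libraries at 0 h, 252, 247 and 227 CPM at 12 h, and 190, 158 and 201 CPM at 24 h. OHP2 in the NAA50 line had 216, 242 and 191 CPM at 0 h, 129, 133 and 112 CPM at 12 h, and 97.2, 99.6 and 87.0 CPM at 24 h. OHP2 was 1.94-fold and 1.93-fold lower. For LPA1 the scrambled libraries held 70.0, 78.4 and 67.0 CPM at 0 h, 65.3, 59.2 and 58.8 CPM at 12 h, and 60.2, 59.1 and 66.6 CPM at 24 h. LPA1 in the NAA50 libraries came to 62.9, 71.5 and 61.9 CPM at 0 h, 45.6, 46.2 and 46.7 CPM at 12 h, and 38.4, 39.6 and 37.1 CPM at 24 h. PAM68 had 21.0, 28.5 and 21.7 CPM in scrambled libraries at 0 h, 12, 12 and 11 CPM at 12 h, and 12.8, 7.52 and 11.3 CPM at 24 h. PAM68 in the NAA50 line had 18.7, 22.3 and 13.6 CPM at 0 h, 5.86, 6.43 and 4.76 CPM at 12 h, and 4.23, 3.50 and 5.29 CPM at 24 h. The photosystem II assembly factors LPA1 and PAM68 were lower at both times (-0.40 and -0.69 for LPA1, -1.05 and -1.27 for PAM68). The NAA50 libraries held 164, 138 and 162 CPM of LHY at 0 h, 651, 658 and 594 CPM at 12 h, and 543, 498 and 508 CPM at 24 h. LHY was lower than in the scrambled line at both times (-0.50 ± 0.10 with adjusted p = 6.41e-04 at 12 h, then -0.26 ± 0.10 with adjusted p = 0.0347, a call lost in 7 of 24 other settings).

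**Figure D5:**
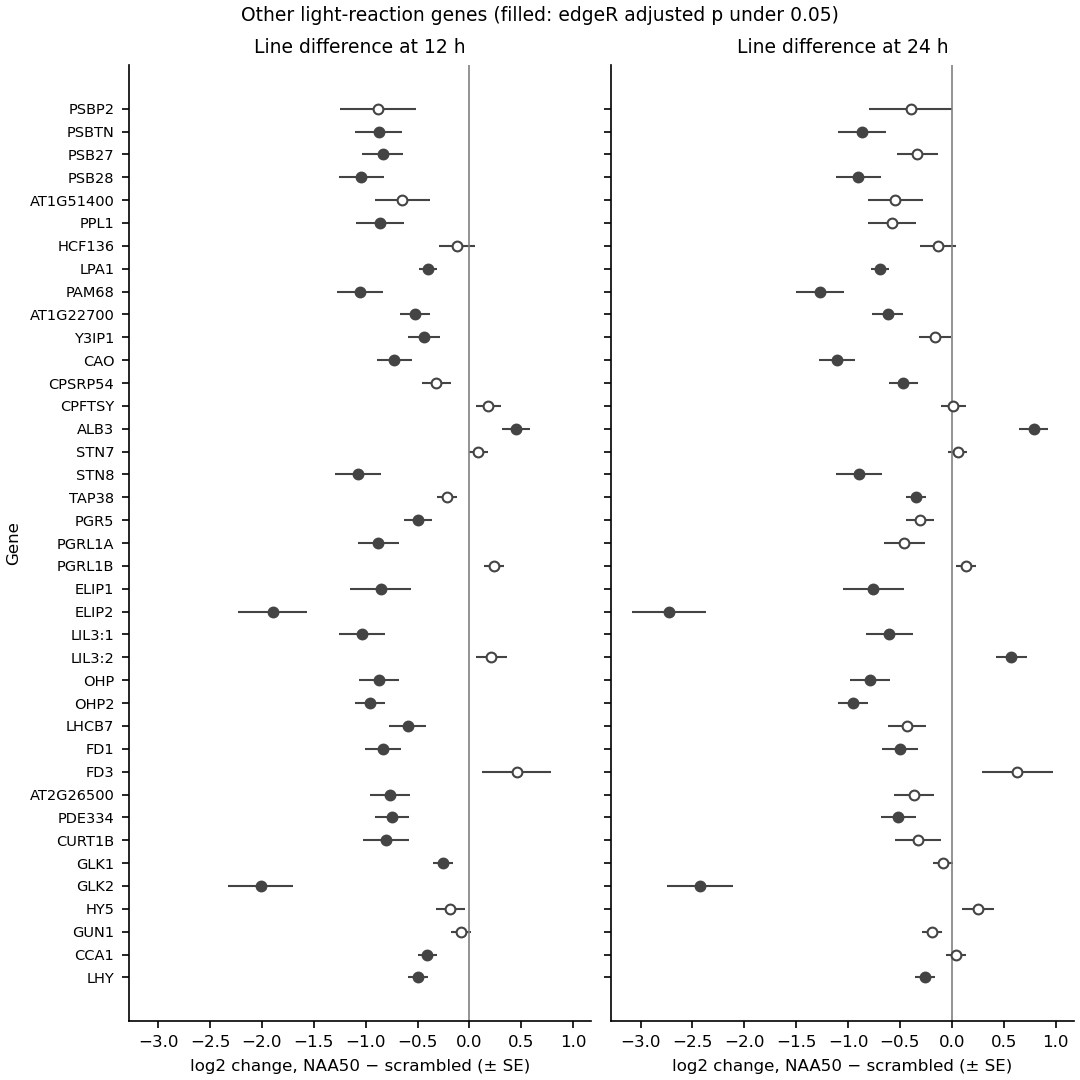
Log2 difference between the lines (NAA50 minus scrambled, ± SE) at 12 and 24 h for the 39 tested genes of the light reactions outside the 50; filled points passed the test. GLK2 and ELIP2 lie farthest left at both times, and ALB3 is to the right of zero.

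Marker genes of leaf cell types moved beside these differences. The summed level of the 3 mesophyll markers was 24919 to 29612 CPM in the scrambled line and 11081 to 15093 CPM in the NAA50 line at 12 h, with 3 of 3 called lower, and 14630 to 23167 against 10348 to 12993 CPM at 24 h, with 2 of 3 lower. The 3 phloem markers summed to 248 to 288 CPM in the scrambled line and 598 to 963 CPM in the NAA50 line at 24 h, with 3 of 3 higher, and the 3 xylem markers to 12.0 to 32.1 against 66.1 to 92.0 CPM, also 3 of 3 higher. At 12 h 1 of 3 was higher in each of these vascular lists. The 4 guard cell markers summed to 43.8 to 48.5 against 26.4 to 33.8 CPM at 12 h, with 2 of 4 lower. At 24 h they summed to 51.6 to 62.3 against 33.7 to 36.2 CPM, with 1 of 4 lower. Of these markers KAT1 had 39.6, 49.1 and 44.8 CPM in the scrambled line against 21.2, 15.9 and 23.3 CPM. FAMA went the other way, with 7.09, 7.52 and 7.41 against 7.57, 12.0 and 8.28 CPM, and MYB60 and HT1 overlapped between the lines. The epidermal list had 1 of 3 tested markers lower at 12 h and 2 lower and 1 higher at 24 h. Mesophyll markers are photosynthesis genes themselves, and the part of cell makeup in the differences of the 50 genes was not tested.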

How the data were processed

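The authors deposited a table of read counts per gene for 18 libraries from the TruSeq Stranded mRNA kit. Trimmomatic, STAR, DESeq2 and TAIR10 are named, without roles or versions, per the submitters' processing notes, and no source used here gives the counting program, strand setting or annotation. Counts were fitted in edgeR 4.0.16 (R 4.3.3, limma 3.58.1) with 1 mean per group over all 18 libraries, TMM scaling and quasi-likelihood F tests. The filter needed a count of at least 10 and a total of 15, and p-values were adjusted over 18344 genes (Benjamini-Hochberg, threshold 0.05). The fit was tested on simulated data. Fold changes are log2 values with SE, and CPM uses the scaled library sizes. Genes were placed on RefSeq TAIR10.1, which matched 98.8% of identifiers. Values per library were given, in each class, for the 2 genes with the smallest adjusted p in each line difference and response at 12 and 24 h, the gene with the highest level per kb and the gene with the largest adjusted p at 24 h. They were also given for NAA50 and for the 8 other light-reaction genes with the smallest adjusted p, and 3 more members (LHCB1.5, LHCB2.3 and LHCA6) were added after their values were seen. The members and lists were chosen with earlier results of these data known. Alternatives were DESeq2 1.42.0, RLE size factors, library totals, no filter, only the groups compared, the replicate number as a block, and leaving out each library. Replicate numbers were not taken to pair the samples, since all 3 same-numbered correlations exceeded 0.1 in only 2 of 15 pairs of groups. The 12 h groups of both lines were 1 of those (0.128, 0.220 and 0.342), and the block left their count of calls unchanged.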

Additional observations from a re-analysis of the deposited data

Results flagged for a closer look

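Several genes were singled out because the difference between the lines changed from its value at 0 h by a test of that change itself (edgeR quasi-likelihood test). All values are log2 changes of the line difference. Among the 50 genes at 12 h they were LHCB1.4 at -1.65, LHCB2.3 at -1.84, LHCB4.3 at -1.12, LHCA6 at -1.46 and PSBO2 at -0.57, and at 24 h LHCB1.4 at -1.86 and PSBO2 at -0.63. Over 24 other settings the 12 h call was lost in 6 for LHCB2.3, 11 for LHCA6 and 16 for PSBO2, and the 24 h call for PSBO2 in 6.

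Among the other light-reaction genes, the values at 12 h were -1.88 for ELIP2, -1.80 for GLK2, -0.60 for OHP2, -0.61 for LHY and 0.71 for ALB3. At 24 h they were -2.71 for ELIP2, -2.21 for GLK2, -0.56 for LPA1, -0.59 for OHP2, -0.76 for CAO, -0.89 for PAM68 and 1.05 for ALB3. Calls were lost in 11 (12 h) and 10 (24 h) of the 24 settings for OHP2, in 12 for PAM68 and in 5 for CAO. The silenced gene NAA50 stood at -1.87 at 12 h and -2.12 at 24 h.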

How the results depend on the processing

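Of 189 results on single genes, 38 lost a call in at least 1 of 24 settings (18 with a library left out and 6 others). The count of members lower in the NAA50 line at 12 h was 38 to 48 with a library left out. At 24 h it was 22 to 45, and 23 with only the groups compared. The 12 h response count was 9 with DESeq2, 8 with only the groups compared and 2 to 9 with a library left out, and the 24 h count was 1 with only the groups compared and 1 to 3 with a library left out. From 0 h, the counts with a library left out were 33 to 45 and 49 to 50 in the scrambled line, and 47 to 49 and 49 to 50 in the NAA50 line. Signs turned for FD2 at 12 h (0.0065 with library totals). At 24 h, with a library left out, FD2 ranged from -0.14 to 0.34, LHCB1.2 from -0.59 to 0.19 and PSAE2 from -0.39 to 0.073; the signs turned without library 2 (FD2) or 3 (LHCB1.2 and PSAE2) of the scrambled line at 24 h. The cause was not tested. With the replicate number as a block, the member counts were 45 at 12 h and 41 at 24 h, and 5 and 2 for the responses. Same-numbered libraries correlated between -0.485 and 0.409, and 21 of 45 correlations exceeded 0.1. Low counts limit genes near 0.224 to 0.322 CPM, and every member lay above that.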
